A study of Mus musculus and Bos taurus with 6 samples.

Results

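The entries described here are mmu-miR-3470a, mmu-miR-3470b and mmu-miR-690, 3 of the 1750 mature miRNA counted in the mouse libraries and 3 of the 896 of these that are miRBase entries. They were chosen by name, after earlier results on these libraries had shown them to be scarce in total RNA and at a much higher level in RNA recovered with the AGO2 protein. The difference between these RNA sources is therefore given for them as a description, with no test. Small RNA was sequenced from abdominal (#4) mammary glands of FVB/N mice at lactation day-12, from which the lymph node had been removed. The RNA was taken without a precipitation (total RNA, 2 libraries) or after co-immunoprecipitation with a monoclonal antibody against Argonaute 2 (AGO2, 2 libraries). Both mouse groups share strain and stage, and the labels name no transgene or treatment. Total RNA from 2 bovine mammary gland libraries forms the rest of the series. The methods of the study describe glands of 2 primiparous mice, and the AGO2 libraries came from different mice. Which mouse or gland gave which library is not given in the sources used here. No library of a precipitation without the AGO2 antibody was analysed here.

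AGO2 is the Argonaute protein that holds a mature miRNA in the RNA-induced silencing complex and can itself cut a matched target. A canonical miRNA is cut by Drosha and then by Dicer from a hairpin encoded at a defined locus, and its bases 2 to 8, the seed, pair with the target mRNA. A miRBase entry is considered doubtful when its sequence recurs throughout a genome, as in a repeat, or when its precursor does not give reads from both arms of a hairpin. The sequence of mmu-miR-3470a and mmu-miR-3470b is that of a B1 element, an abundant short interspersed repeat of rodent genomes, and mmu-miR-690 belongs to a numbered series of entries from an early survey of mouse small RNA.

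The mature sequences are shown because the 3 entries are told apart, and found again elsewhere, by these letters alone. They are written 5′ to 3′ as deposited, with the seed in capitals.
mmu-miR-3470a: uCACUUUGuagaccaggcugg
mmu-miR-3470b: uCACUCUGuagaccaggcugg
mmu-miR-690: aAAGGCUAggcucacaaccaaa
The pair mmu-miR-3470a and mmu-miR-3470b was identical at 20 of 21 positions. The substitution from mmu-miR-3470a to mmu-miR-3470b was U6C, counted from 1 at the 5′ end, and lay within the seed. The seeds of the 3 entries therefore all differed, and no other entry of the mouse list had any of these seeds. With bases 2 to 7 alone, miR-6908-3p matched mmu-miR-3470b and miR-700-5p matched mmu-miR-690. The sequence of mmu-miR-690 ended in 3 A residues, as 5 of the 896 known entries did. The libraries were built by poly(A) tailing and poly-A stretches were then removed from the reads, so that an A at the 3′ end of a molecule cannot be told apart from the added tail.

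Each entry had 1 row in the mouse list, for the 5p arm of mmu-miR-3470a and mmu-miR-3470b and for the 3p arm of mmu-miR-690. The opposite arm had no row for any of them. The list counts named mature sequences, and the names of the 3 entries carry no arm suffix. A missing row therefore does not show whether the opposite arm gave reads. Of the 611 known precursors, 326 (53.4%) had a lone row, so that this did not set the 3 entries apart from the list.

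In total RNA, mmu-miR-3470a was counted 5 and 13 times in libraries 1 and 2, and in AGO2 it was counted 197 and 536 times. In reads per 1000000 listed reads (RPM), this was 0.538 and 1.55 RPM in total RNA against 50.4 and 106 RPM in AGO2. The AGO2 libraries were thus both far above the total RNA libraries, although they were the shallower ones. The counts of mmu-miR-3470b were 19 and 8 in total RNA and 246 and 647 in AGO2. Its levels were 2.04 and 0.953 RPM in total RNA and 62.9 and 128 RPM in AGO2. The order of the total RNA libraries was the opposite of that of mmu-miR-3470a, at counts of 19 or fewer. For mmu-miR-690, 7 and 9 reads in total RNA and 263 and 366 reads in AGO2 were counted. The corresponding levels were 0.753 and 1.07 RPM in total RNA and 67.3 and 72.6 RPM in AGO2. The AGO2 libraries gave nearly the same level for this entry.

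**Figure D1:**
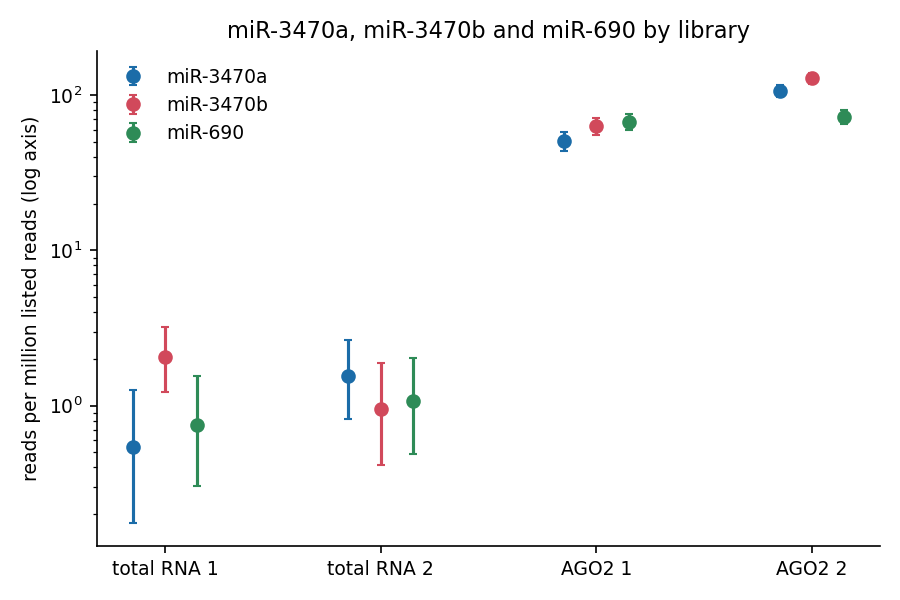
Level of each entry in the 4 mouse libraries, in RPM on a log axis. Points are libraries and bars are exact 95% Poisson intervals of the count. The total RNA libraries sit between 0.538 and 2.04 RPM and the AGO2 libraries between 50.4 and 128 RPM, with no overlap of the intervals.

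As group means, mmu-miR-3470a was at 1.04 ± 0.715 RPM in total RNA and at 78.4 ± 39.5 RPM in AGO2 (SD, n = 2 libraries), a ratio of 75.1. The level of mmu-miR-3470b was 1.5 ± 0.771 RPM in total RNA and 95.6 ± 46.3 RPM in AGO2, a ratio of 63.8. The level of mmu-miR-690 was 0.913 ± 0.226 RPM in total RNA and 69.9 ± 3.76 RPM in AGO2, a ratio of 76.6. Taking only the lowest AGO2 and the highest total RNA library, the ratio was still 32.5 for mmu-miR-3470a, 30.8 for mmu-miR-3470b and 62.7 for mmu-miR-690. The 3 entries together held 31 and 30 reads in total RNA and 706 and 1549 reads in AGO2. They made up 0.0181% and 0.0307% of the listed reads of the AGO2 libraries, so they remained minor even there.

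The libraries held 9299807 and 8391916 listed reads in total RNA and 3909166 and 5041406 in AGO2. With 3 counts as the limit of detection, the smallest level that could be seen was 0.323 to 0.357 RPM in total RNA and 0.595 to 0.767 RPM in AGO2. All 3 entries were above this limit in every library. The total RNA values nevertheless rested on few reads, and the 95% interval of mmu-miR-3470a in total RNA library 1 ran from 0.175 to 1.25 RPM. That of mmu-miR-690 in AGO2 library 1, by comparison, ran from 59.4 to 75.9 RPM. These intervals cover counting error only, since reads amplified by PCR are not independent molecules.

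By level among all entries, mmu-miR-3470a was at ranks 564 and 432 in total RNA and at ranks 196 and 150 in AGO2. The ranks of mmu-miR-3470b were 422 and 478 in total RNA and 182 in AGO2 library 1, with a still higher place in AGO2 library 2. Those of mmu-miR-690 were 527 and 467 in total RNA and 177 and 179 in AGO2. They thus stood near or below the middle of the 858 and 773 entries with a read in total RNA, and in the upper part of the 839 and 1080 entries with a read in AGO2.

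The fitted log2 ratio of AGO2 over total RNA (edgeR with TMM scaling, over 299 entries that passed the filter on low counts) was 6.37 ± 1.16 (SE) for mmu-miR-3470a, 6.16 ± 1.03 for mmu-miR-3470b and 6.38 ± 1.17 for mmu-miR-690. The SE of each ratio exceeded the differences between these 3 ratios. The median log2 ratio of all tested entries was -0.12 with this scaling, -0.01 with DESeq2 size factors and -0.27 with library totals. All 3 entries were tested, and each passed the count filter only through its AGO2 libraries. They ranked 14, 15 and 13 of 299 by log2 ratio, in the order mmu-miR-3470a, mmu-miR-3470b and mmu-miR-690. Among the 277 known entries tested they ranked 3, 4 and 2, after let-7d-3p, the passenger strand of let-7d, at 7.55. In both AGO2 libraries above both total RNA libraries were 3 of 3 of them, against 99 of all 299 tested entries (33.1%). The 3 were also among the 46 entries (15.4% of those tested) with an adjusted p under 0.05 and a higher level in AGO2. Because the entries were chosen on this difference, nothing is read from these shares.

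**Figure D2:**
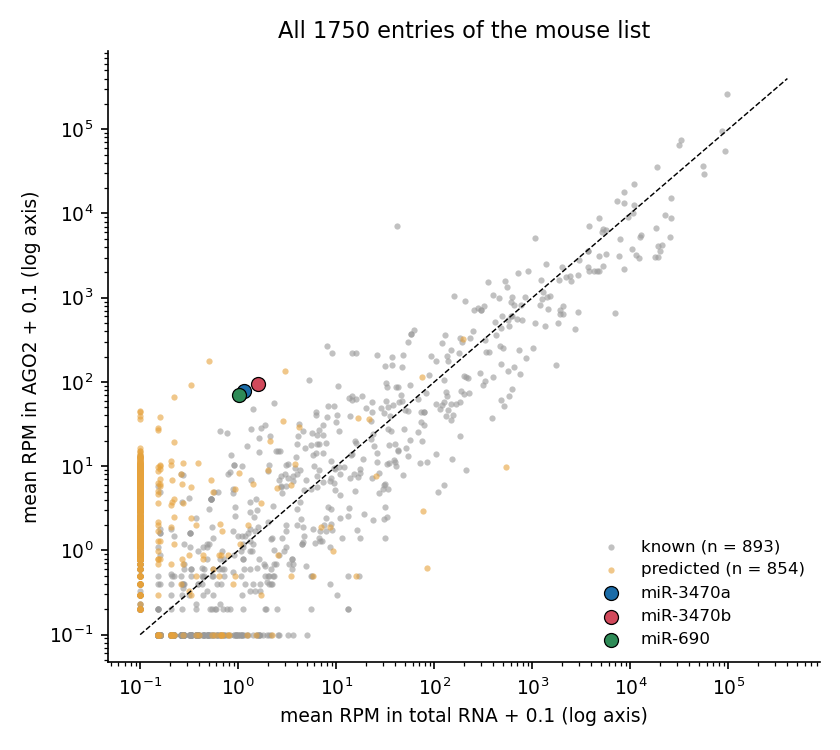
Mean level in total RNA (x) and in AGO2 (y) of all 1750 entries, in RPM with 0.1 added, on log axes. Grey points are known and orange points predicted entries, and the dashed line marks equal levels. The 3 entries lie near 1 RPM in total RNA and between 69.9 and 95.6 RPM in AGO2, away from the body of known entries.

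The values on either side of a limit show how the entries stood among scarce ones. A level under 3 RPM in both total RNA libraries was found for 510 known entries, and 261 of these had no read in either AGO2 library. At least 50 RPM in both AGO2 libraries was reached by mmu-miR-3470a, mmu-miR-3470b and mmu-miR-690 only. In AGO2 library 2 alone, miR-1839-3p and miR-190a-3p also reached 50 RPM. Of the 834 predicted entries under the same limit in total RNA, 2 reached 50 RPM in both AGO2 libraries, namely mmu-11_7098 and mmu-8_43005. Both limits were chosen after the values were seen, and mmu-miR-3470a lay close to the upper one with 50.4 RPM in AGO2 library 1.

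The AGO2 libraries did not carry the entries equally. From AGO2 library 1 to AGO2 library 2, the level of mmu-miR-3470a differed 2.11-fold (95% interval for counting error 1.79 to 2.50) and that of mmu-miR-3470b 2.04-fold (1.76 to 2.37). For mmu-miR-690 the ratio was 1.08 (0.918 to 1.27), an interval that includes 1 and does not overlap with those of the pair. Such a spread was common, as 119 of the 299 tested entries (39.8%) were more than 2-fold apart between the AGO2 libraries and the SD of the log2 ratio was 1.72. The median log2 ratio of library 2 over library 1 was -0.10 for the 277 known entries and 1.18 for the 22 predicted entries tested. The ratios of mmu-miR-3470a (1.08 on the log2 scale) and mmu-miR-3470b (1.03) were near the median of the predicted entries, and that of mmu-miR-690 (0.11) was nearer to the median of the known entries. The SD was 1.61 for the known and 2.36 for the predicted entries, and 57 of the 277 known entries were at or above mmu-miR-3470b. All 3 ratios thus lay within the spread of both classes and do not liken an entry to either.

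**Figure D3:**
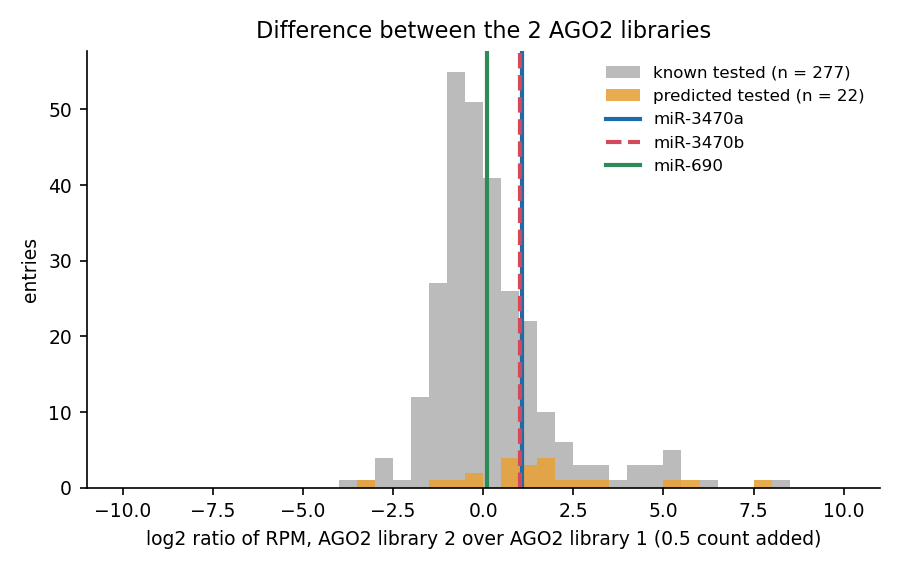
Log2 ratio of the level in AGO2 library 2 over AGO2 library 1 (0.5 count added) for tested entries, as overlaid histograms of 277 known (grey) and 22 predicted (orange) entries. Vertical lines mark mmu-miR-3470a at 1.08, mmu-miR-3470b at 1.03 and mmu-miR-690 at 0.11.

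The balance within the pair was similar in the AGO2 libraries. Of the reads given to either mmu-miR-3470a or mmu-miR-3470b, mmu-miR-3470a held 44.5% in AGO2 library 1 (197 of 443, exact 95% interval 39.8 to 49.2%) and 45.3% in AGO2 library 2 (536 of 1183, 42.4 to 48.2%). In total RNA the share was 20.8% (5 of 24, 7.13 to 42.2%) and 61.9% (13 of 21, 38.4 to 81.9%). Over the pooled reads of both libraries it was 40% in total RNA (25.7 to 55.7%) and 45.1% in AGO2 (42.6 to 47.5%). The pooled intervals cover counting error only and leave out the difference between libraries, which was wide in total RNA. Whether the share differed between the RNA sources was therefore not decided. With a difference at 1 base, reads may also have been counted under both names. The entries miR-467a-5p and miR-467b-5p carried identical counts in all 4 libraries, whereas the counts of mmu-miR-3470a and mmu-miR-3470b differed in every library. The number of mismatches allowed in counting is not given in the sources used here, and the share of reads common to the pair was not determined.

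As a check of the labelled tissue, the 5 epithelial markers (3p arms of miR-141, miR-429 and the miR-200 members a, b and c) were all detected and summed to 158889 to 188120 RPM in total RNA and to 337095 to 367567 RPM in AGO2. The members of this list did not move together, as miR-200a-3p (log2 ratio 1.58 ± 0.27, SE) and miR-141-3p (1.34 ± 0.37) were called higher in AGO2, miR-200b-3p (-1.43 ± 0.44) and miR-200c-3p (-1.71 ± 0.57) lower, and miR-429-3p (-0.63 ± 0.50) was not called. Summed markers of endothelium were at 16270 to 20468 RPM in total RNA and 6711 to 6776 RPM in AGO2, those of smooth muscle and stroma at 51428 to 65763 and 31156 to 32424 RPM, and those of skeletal muscle at 163 to 213 and 27.9 to 70.2 RPM. Leukocyte markers (2 of 3 found) were at 464 to 546 RPM in total RNA and 1108 to 1114 RPM in AGO2, and the erythroid marker at 5397 to 11706 and 9837 to 26598 RPM. The basal epithelial marker miR-205-5p was at 626 to 915 RPM in total RNA and 717 to 942 RPM in AGO2. Of markers from other tissues, the hepatocyte marker miR-122-5p was at 2.03 to 2.69 RPM in total RNA and at 0 to 1.19 RPM in AGO2. The neuronal markers miR-124-3p and miR-9-5p summed to 34.3 to 97.6 RPM in total RNA and 18.8 to 31.7 RPM in AGO2. Predicted entries held 0.10 to 0.13% of the reads in total RNA and 0.25 to 0.59% in AGO2, and 84 to 107 against 456 to 465 of them had a read. Of the 22 predicted entries tested, 12 were called higher in AGO2, 3 lower and 7 neither. The part of these predicted entries in the levels of the 3 entries was not tested.

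The miRBase genes of the 3 entries were located in the GENCODE M21 annotation of GRCm38, the build to which the study mapped. Mir3470a lies at chr6:83090311-83090387 on the minus strand and overlaps no other annotated gene, with Lbx2, which encodes a homeobox transcription factor, as the nearest protein-coding gene at 2068 bp. Mir3470b lies at chr16:44013852-44013977 on the plus strand, within an intron of Gramd1c, which is transcribed from the opposite strand. Its mature sequence occupies bases 44013885 to 44013905. Mir690 lies at chr16:28599935-28600043 on the minus strand, within an intron of the fibroblast growth factor gene Fgf12 and on the same strand as it. Its mature sequence occupies bases 28599940 to 28599961. None of the 3 overlapped an annotated exon of another gene.

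The hairpin of Mir690 (RefSeq, GRCm38.p6) is shown for the place of the mature sequence in it, which is in capitals.
Mir690: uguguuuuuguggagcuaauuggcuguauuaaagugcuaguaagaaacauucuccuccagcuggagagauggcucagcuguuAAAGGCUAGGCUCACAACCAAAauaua
The mature sequence took up bases 83 to 104 of the 109 in this hairpin, and 15 of its 22 bases were paired in the structure of lowest energy predicted with RNAfold. The predicted energy was -29.0 kcal/mol, or -0.27 kcal/mol per base. The median over 1005 mouse hairpins of RefSeq was -0.41 kcal/mol per base, and 56 of them (5.57%) were less stable per base than that of Mir690.

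Copies of the mature sequences were then counted among the 141767 annotated transcripts (55450 genes, GENCODE M21), which stand in for the genome and do not include spliced-out introns. The sequence of mmu-miR-3470a was found without mismatch and on the same strand in transcripts of 450 genes, and its reverse complement in those of 421 genes. The sequence of mmu-miR-3470b was found in 591 genes and its reverse complement in 504. The sequence of mmu-miR-690 was found in 19 genes and its reverse complement in 1. The median known entry was found in 1 gene, and mmu-miR-3470b, mmu-miR-3470a and mmu-miR-690 took ranks 2, 3 and 7 among the 896 known entries. A read with any of these sequences could not be assigned to 1 locus.

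The copies of the pair and those of mmu-miR-690 mostly lay in transcripts of different annotated classes. For mmu-miR-3470a, protein-coding transcripts of 178 genes and retained-intron transcripts of 163 genes held the sequence, together with 29 lincRNA genes and 9 genes annotated as miRNA. For mmu-miR-3470b, these numbers were 173, 196, 38 and 45. Within protein-coding transcripts, the match to mmu-miR-3470a lay in the 3′ UTR for 166 genes, in the 5′ UTR for 10 and in the coding sequence for 3. That to mmu-miR-3470b lay in the 3′ UTR for 159 genes, in the 5′ UTR for 12 and in the coding sequence for 2. Most genes held only 1 sequence of the pair, and 26 genes held both (5.78% of those with mmu-miR-3470a and 4.40% of those with mmu-miR-3470b). Of the 19 genes with mmu-miR-690, 16 were annotated as miRNA genes, on 11 chromosomes. Only Mir690 among them carries the miRBase name, and the other 15 do not. Whether these 15 give rise to a miRNA was not tested. The other 3 were Fundc2, which encodes a mitochondrial outer membrane protein and holds the sequence in its 3′ UTR, and the non-coding or unclassified genes BC018473 and Gm42826.

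**Figure D4:**
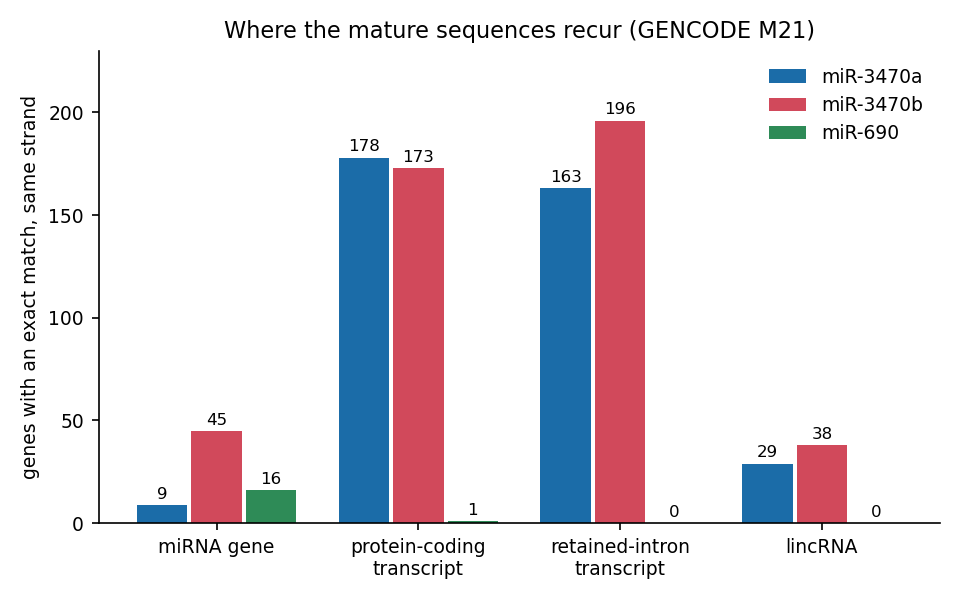
Number of genes with an exact match to each mature sequence on the same strand, by the class of the transcript that holds it (GENCODE M21). Bars start at 0 and carry their counts, and a gene may appear in more than 1 class. The pair recurs in 173 to 178 genes with a protein-coding transcript, and mmu-miR-690 in 16 genes annotated as miRNA.

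Genes annotated as miRNA were also repeated for the pair. The mature sequence of mmu-miR-3470a stood in 9 such genes on 7 chromosomes and that of mmu-miR-3470b in 45 on 16 chromosomes, of which 1 each carries the miRBase name. Only 22 of the 896 known entries had 10 or more such genes. Within the windows of RefSeq promoters around the start sites of 32851 genes, the sequence of mmu-miR-3470a was found in 7 (0.0213%) and its reverse complement in 3. That of mmu-miR-3470b was found in 1 and its reverse complement in 9, and that of mmu-miR-690 in 1.

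Other known entries with many copies were compared with the 3 by their levels, without a test. Apart from the 3 entries, 24 known entries were found in 10 or more genes. Several of them carried identical counts in every mouse library, such as the 3p arms of miR-466a, miR-466b, miR-466c, miR-466e and miR-466p. The same held for miR-669a-3p and miR-669o-3p. The 24 are therefore not separate observations, and the shares below count such entries more than once. In AGO2 library 1, 19 of these had no read (79.2%, against 57.3% of all 896 known entries), and in AGO2 library 2, 1 had none (4.17% against 31.4%). The level in AGO2 library 2 was above both total RNA libraries for 13 of the 24, and that in AGO2 library 1 for 2. Over all 896 known entries these counts were 302 for AGO2 library 2 and 168 for AGO2 library 1. Both AGO2 libraries were above both total RNA libraries for 1 of the 24, against 193 of all 1750 entries with TMM scaling and no count filter. This was miR-692, which had no read in total RNA and reached 2.05 and 17.7 RPM in AGO2. The entries with copies in 100 or more genes are the closest to the pair. Among these, miR-466i-5p (2086 genes) was at 2.26 and 1.91 RPM in total RNA and at 0 and 0.992 RPM in AGO2. For miR-3473b (360 genes) the levels were 2.26 and 0 RPM in total RNA and 0.256 and 34.7 RPM in AGO2, so that its AGO2 libraries differed far more than those of the pair. For miR-3473a (148 genes) they were 3.76 and 1.55 RPM in total RNA and 8.19 and 2.98 RPM in AGO2, and the groups overlapped. None of these 3 passed the count filter. The only other tested known entries with 10 or more genes were miR-467a-5p and miR-467b-5p, with a log2 ratio of -0.66 each and no call. The predicted entry mmu-11_6469 (11 genes) was also tested, with a log2 ratio of -4.97 and no call. Of the 272 tested known entries found in fewer than 10 genes, 31 were higher and 34 lower in AGO2, with a median log2 ratio of -0.26.

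**Figure D5:**
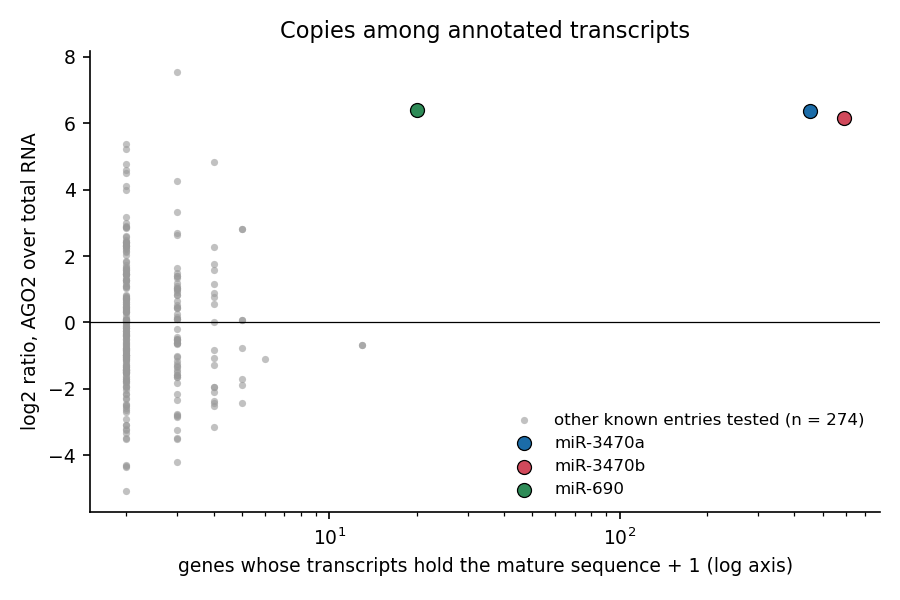
Number of genes whose annotated transcripts hold the mature sequence, with 1 added, on a log axis (x) against the fitted log2 ratio of AGO2 over total RNA (y) for the 277 tested known entries. The 3 entries lie at 19, 450 and 591 genes with ratios between 6.16 and 6.38, and the points next to them in copies, miR-467a-5p and miR-467b-5p, coincide at -0.66.

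Entries numbered near mmu-miR-690, from miR-680 to miR-721, were listed 16 times, and 3 of them were tested. These were mmu-miR-690 and both arms of miR-708. Neither arm of miR-708 was called, and mmu-miR-690 was called higher in AGO2, as were 15.4% of all tested entries. Because mmu-miR-690 was chosen for its high level in AGO2, nothing is read from its call. The 3p arm of miR-708 was at 12.3 and 19.2 RPM in total RNA and at 47.8 and 76.6 RPM in AGO2, whereas its 5p arm was lower in both AGO2 libraries than in both total RNA libraries. The entry miR-682 (13 genes), another with many copies, had 10 reads in AGO2 library 2 and none in the other libraries.

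No other row of the mouse list shared a run of 15 or more bases with any of the 3 entries, other than mmu-miR-3470a and mmu-miR-3470b with each other. None of the 823 precursors predicted from the mouse reads contained such a run. With runs of 12 bases or more, the only addition was the predicted precursor mmu-4_31286, which held 12 bases of the reverse complement of mmu-miR-3470a. In the bovine list of 1539 entries, no row had the name of any of the 3 or shared 12 bases with them. A predicted bovine entry, bta-10_3147, had the seed of mmu-miR-690.

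The entries with the most similar profile over the 4 libraries were sought among the 299 tested, by Euclidean distance between centred log2 levels. The centring removes the level of an entry and leaves the shape of its profile. For mmu-miR-3470a they were mmu-miR-690 (distance 0.86), the predicted mmu-X_46740 (0.91) and the predicted mmu-19_21922 (1.19). For mmu-miR-3470b they were mmu-19_21922 (0.55), the predicted mmu-15_15267 (0.85) and mmu-miR-690 (1.12). For mmu-miR-690 they were mmu-miR-3470a (0.86), mmu-19_21922 (0.88) and mmu-15_15267 (1.10). The neighbours outside the 3 entries were thus all predicted entries. Of these, mmu-19_21922 had 1 and 0 reads in total RNA and 73 and 176 in AGO2, mmu-X_46740 had 0 and 1 against 71 and 295, and mmu-15_15267 had 38 and 15 against 543 and 649. Each of these sequences stood in the transcripts of 1 annotated gene, and none of these genes was annotated as a miRNA. That of mmu-15_15267 was found in Rnu12, a small nuclear RNA of the minor spliceosome, that of mmu-X_46740 in the casein mRNA Csn1s2a and that of mmu-19_21922 in Pcx, which encodes pyruvate carboxylase. The sequence of mmu-8_43005, named above for its high level in AGO2, was found in Csn2, the mRNA of beta-casein. That of mmu-11_7098, named above with it, was found in 0 genes, so not every such predicted entry matched an annotated transcript. With 4 libraries in 2 groups, such distances mainly reflect the difference between the RNA sources.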

How the data were processed

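Small RNA of 4 mouse and 2 bovine mammary libraries was considered. Before counting, the authors trimmed poly-A runs and discarded reads outside 17 to 28 nt. Reads were assigned with miRDeep2 to precursors of miRBase 20 and to predicted ones, and the deposited numbers are unnormalised counts. The deposited predictions carry a miRDeep2 score, and those above 0 were retained per the methods. The deposited columns of normalised values were not used. RPM were computed over the listed counts of a library. The 299 entries whose highest count exceeded the threshold given in the study were fitted with edgeR 4.0.16 (TMM, quasi-likelihood, Benjamini-Hochberg adjustment, R 4.3.3), with DESeq2 1.42.0 as an alternative. On simulated counts of 299 entries for AGO2 against mouse total RNA, 63 of 108 entries changed by 2 on the log2 scale and 86 of 92 changed by 4 were called, and 1 of 99 unchanged ones was. Intervals are exact Poisson or Clopper-Pearson. Sequences were compared by exact match with GENCODE M21 transcripts and RefSeq tables (GRCm38.p6), in which mature forms of mmu-miR-3470b and mmu-miR-690 were found and were identical. Hairpins were folded with RNAfold 2.7.2. Named were the 3 entries, their 3 nearest profiles, and entries sharing a run, a seed or many copies with them, and others named beside a limit, and the check of predicted entries against transcripts, were chosen after their values were seen. The entries and lists were chosen with earlier results of these data known.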

Additional observations from a re-analysis of the deposited data

How the results depend on the processing

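The log2 ratio of AGO2 over total RNA stayed positive for the 3 entries under every alternative run. With DESeq2 size factors, library totals, no count filter or the DESeq2 test it ranged from 6.21 to 6.48 for miR-3470a, 5.97 to 6.31 for miR-3470b and 6.23 to 6.51 for miR-690. When each library was left out in turn it ranged from 5.77 to 7.30 for miR-3470a, 5.62 to 6.94 for miR-3470b and 6.11 to 6.82 for miR-690, the last value being that without AGO2 library 1. Over all entries, 46 were called higher and 37 lower in AGO2. The count of higher calls was 29 with no filter (of 1750 tested), 69 with DESeq2, and 31 to 62 when a library was left out. The count of lower calls was 21 without total RNA library 1, 23 without AGO2 library 1, and at most 33 when another library was left out. Entries with both AGO2 libraries above both total RNA libraries rose from 99 to 193 with no filter. With 1 substitution allowed, genes holding the sequence numbered 1274 for miR-3470a, 1481 for miR-3470b and 32 for miR-690. The cause of these changes was not tested. A count of genome copies was not run, and the matches in transcripts, an alternative chosen after seeing the data, miss copies outside annotated exons. With 2 libraries per group and under 20 reads per entry in total RNA, the ratios have wide errors. No paired analysis was possible because the sources used here do not tie libraries of both groups to the same animals. As the methods describe 2 mice, both groups may share animals, whereas the fit treats the libraries as independent.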
